A study of Mus musculus with 2 samples.

Results

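The 36 genes described here encode aminoacyl-tRNA synthetases, the enzymes that attach each amino acid to its tRNA. They were chosen as a named gene family, with no measured value in the rule, although earlier results of these data were known, as 20 genes for cytosolic enzymes and 16 genes for mitochondrial enzymes, whose symbols end in 2, out of 21474 annotated protein-coding genes and 69691 features of the gene table. All 36 were found, with Mars1 listed under its older symbol Mars. Total RNA was measured in single hearts of 2 mouse pups of strain B6NCrl at postnatal day 0, untreated and with no genotype or sex given, replicate 1 being pup 2 and replicate 2 being pup 3, both labelled as from pregnant 1 and so called littermates here. Both samples carry 1 donor identifier and were taken as 2 animals from their descriptions. There was 1 group (n = 2), so every comparison is between genes within the hearts or between the littermates, and no test was possible, since with 2 pups an exact sign-flip test reaches at best a two-sided p of 0.5. Values are in TPM (a transcript abundance that corrects reads for length and depth), and the SDs measure the spread between these pups only.

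A synthetase first activates its amino acid with ATP and then loads it on the tRNA, so each cell needs 1 set of enzymes for cytosolic ribosomes and another for the ribosomes of mitochondria. Both sets are encoded in the nucleus, and the mitochondrial enzymes are imported to serve the few inner-membrane proteins made in the organelle, on which the respiratory chain of heart muscle depends. The enzymes fall into 2 unrelated classes, I and II, by the fold of their catalytic domain. In mammals several cytosolic enzymes are bound together with scaffold proteins in the multisynthetase complex. Human variants of several mitochondrial enzymes, AARS2 among them, are a known cause of cardiomyopathy in infancy.

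Expected counts, the reads estimated per gene, totalled 46151722 in replicate 1 and 44707283 in replicate 2. The labelled tissue carried its defining markers, with Actc1 at 16412 and 13902 TPM, Tnnt2 at 10667 and 9972 TPM and Myl2 at 11818 and 11724 TPM in replicates 1 and 2, while the liver markers Alb, Apoa1 and Afp summed to 2.69 and 1.25 TPM. The 5 erythroid markers summed to 6036 TPM in replicate 1 and 3916 TPM in replicate 2, and their part in the differences between the pups below was not tested. The 5 lung epithelium markers summed to 31.4 and 564.6 TPM, a difference carried by Scgb3a2 with 2.96 TPM in replicate 1 and 563.01 TPM in replicate 2, while Sftpc had 25.5 and 0.34 TPM.

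All 36 synthetases were detected at 1 TPM or more in both pups, against 54.5% of 21474 protein-coding genes. Most cytosolic enzymes stood above most mitochondrial ones: the median level was 33.6 TPM in replicate 1 and 31.7 TPM in replicate 2 over the cytosolic genes, against 14.2 and 14.8 TPM over the mitochondrial genes. The ratio of these medians was 2.26 ± 0.158 (SD, n = 2). Every cytosolic gene averaged 10 TPM or more and 15 of 20 averaged 20 TPM or more, whereas 12 of 16 mitochondrial genes reached 10 TPM and 6 reached 20 TPM. Protein-coding genes detected in both pups had a median of 12.1 and 11.9 TPM. Ranked by mean TPM among all protein-coding genes, cytosolic members lay between the percentiles 70.17 and 93.62, and mitochondrial members between 50.02 and 99.18.

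The summed levels ran the other way when Lars2 was included. The cytosolic genes summed to 772.8 and 742.2 TPM in replicates 1 and 2 (mean 757.5 ± 21.6), and the mitochondrial genes to 979.0 and 946.3 TPM (962.6 ± 23.1). Without Lars2, the 15 other mitochondrial genes summed to 254.4 and 251.5 TPM (253.0 ± 2.02). The cytosolic sum was thus 0.787 ± 0.00358 of the mitochondrial one with Lars2, and 2.99 ± 0.0615 times the mitochondrial one without it. These sums cover unequal sets, 20 cytosolic genes against 16 or 15, and Lars stayed in when Lars2 was left out. Dars, Gars, Kars, Qars and Farsb have no partner of their own in the mitochondrial sum. In expected counts the cytosolic genes took 68119 and 64704, and the mitochondrial genes 128428 and 122321, of which all but 23861 and 23119 belonged to Lars2.

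**Figure D1:**
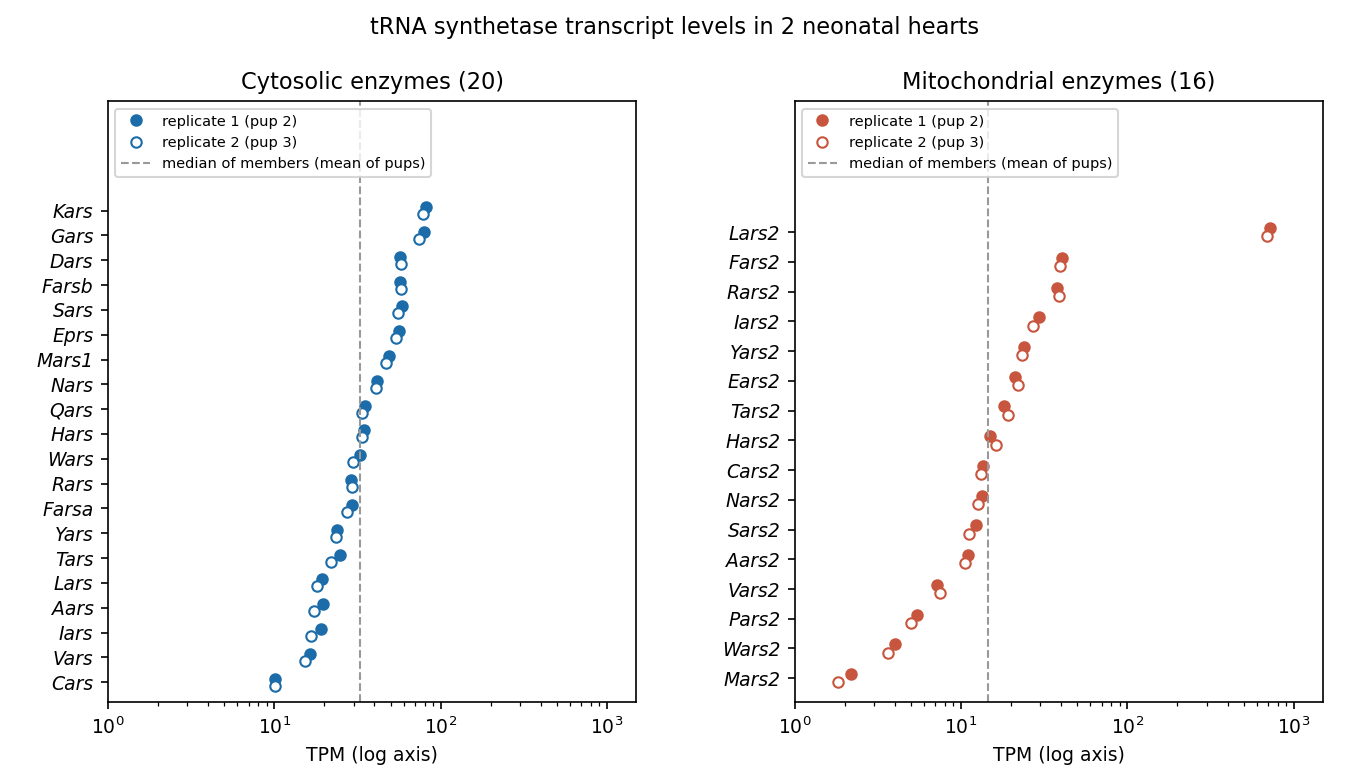
TPM of each synthetase on a log axis, cytosolic genes on the left and mitochondrial genes on the right, ordered by mean; filled points are replicate 1, open points replicate 2, and dashed lines the median of the members. Cytosolic genes run from 10.1 to 79.98 TPM by mean, and Lars2 at 709.6 TPM lies far to the right of every other gene while Mars2 is lowest at 1.995 TPM.

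Promoters of 4 cytosolic enzymes held the 8-base core of the C/EBP-ATF response element, to which ATF4, the activator of genes for amino acid supply, is known to bind as a partner of C/EBP proteins. The RefSeq promoter table (GRCm38.p6, from 250 bases before to 50 bases after each start) had entries for 13 cytosolic and 14 mitochondrial members. The core TGATGCAA, searched on both strands, was present for 4 of the 13 cytosolic genes (30.8%) and 0 of the 14 mitochondrial genes, against 1.03% of 27025 genes of the table and 6 of 21 listed genes of the ATF4 and amino acid response (28.6%). Stretches of 30 bases from 3 of the 4 cytosolic genes are shown because they carry the core; capitals mark the core, and all run 5′ to 3′ on the strand of the gene.
Iars promoter, chr13:49682126-49682155, plus strand: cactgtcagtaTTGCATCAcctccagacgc
Tars promoter, chr15:11399655-11399684, minus strand: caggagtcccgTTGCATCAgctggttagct
Yars promoter, chr4:129189895-129189924, plus strand: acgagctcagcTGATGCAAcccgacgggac
In Iars and Tars the capitals read as the core on the opposite strand, and in Yars the core reads on the strand of the gene. Counted from the RefSeq start of the table, the match ended 8 bases before it in Tars, and began at base 8 of the transcript in Iars and at base 4 in Yars. With the looser form TGATGNAAN, which takes in every match of the core, Gars was added (5 of 13 cytosolic genes, 38.5%) and the mitochondrial genes stayed at 0 of 14, against 4.5% of all genes of the table. A match is a description of letters, and no factor binding was measured here.

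Among cytosolic enzymes, class II genes stood above class I genes by their medians. The 10 class II genes had a median of 49.1 TPM in replicate 1 and 48.2 TPM in replicate 2, and the 9 class I genes 23.96 and 23.4 TPM, with Eprs, a fusion of a class I and a class II enzyme, kept apart. The 8 enzymes of the multisynthetase complex had a median of 42.05 and 40.35 TPM, and the 12 other cytosolic genes 30.9 and 28.6 TPM, a ratio of 1.39 ± 0.0338 (SD, n = 2). That order turned over when only transcripts with a complete coding sequence were counted, where the ratio was 0.862. Mitochondrial genes did not show the same order by class: the 9 class I genes had medians of 21.1 and 22.1 TPM (17.3 and 17.7 TPM without Lars2), and the 7 class II genes 13.3 and 12.6 TPM.

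Of the complex, 3 enzymes have no mitochondrial partner among the members. Kars, the lysyl enzyme (chromosome 8, 111993443 to 112011323), was the most abundant cytosolic gene, with 81.3 TPM in replicate 1 (interval 78.03 to 82.1) and 78.7 TPM in replicate 2 (75.5 to 79.5), from 6028 and 5775 counts. Its human gene gives both the cytosolic and the mitochondrial enzyme by splicing. Dars, the aspartyl enzyme (chromosome 1, 128363707 to 128417368), had 56.8 TPM from 4483 counts in replicate 1 (interval 54.4 to 57.7) and 57.9 TPM from 4511 counts in replicate 2 (55.5 to 58.9). Qars, the glutaminyl enzyme (chromosome 9, 108507706 to 108515941), had 35.1 and 33.7 TPM in replicates 1 and 2 (intervals 33.6 to 41.5 and 32.2 to 39.3, counts 2284 and 2171). Gars, the glycyl enzyme outside the complex whose gene also supplies mitochondria (chromosome 6, 55038007 to 55079500), was second among cytosolic genes, with 79.3 TPM in replicate 1 (interval 76.2 to 79.9) and 74.3 TPM in replicate 2 (71.4 to 75.05), from 6930 and 6429 counts. Kars and Gars together account for the top of the cytosolic range, and without them the ratio of medians was 2.08 and the ratio of sums 0.624.

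Enzymes for the same amino acid were set against each other within each pup as the log2 ratio of TPM + 1, cytosolic over mitochondrial. A pair was called where the sign was the same in both pups, the mean ratio exceeded the difference between the pups, and the deposited credibility intervals of the pair did not overlap in either pup. These intervals surround the authors' posterior mean, so a TPM value can lie at or beyond an edge, and they cover quantification error only. Of 16 pairs, 10 were called with the cytosolic enzyme higher, 4 with the mitochondrial enzyme higher, and 2 were not called.

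**Figure D2:**
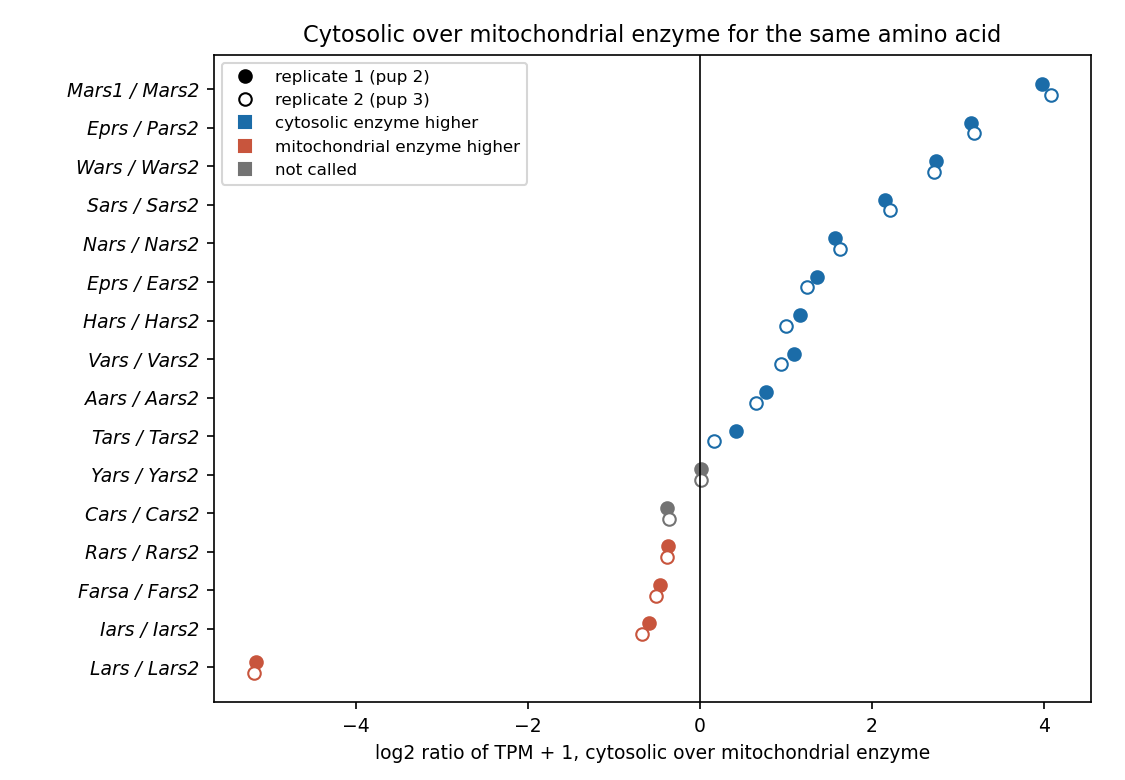
Log2 ratio of TPM + 1, cytosolic over mitochondrial enzyme, for the 16 pairs in replicate 1 (filled) and replicate 2 (open); colours give the call. Ratios run from a mean of -5.18 for Lars and Lars2 to 4.04 for Mars1 and Mars2 (2.71 with complete coding transcripts alone, where Wars and Wars2 lead at 3.38), and the points of the pups lie close together in every pair, the widest gap being that of Tars and Tars2.

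The 4 pairs with the widest gap towards the cytosolic enzyme were those for methionine, proline, tryptophan and serine. Mars1, the methionyl enzyme that also loads the initiator tRNA (chromosome 10, 127296221 to 127311786), had 49.01 TPM in replicate 1 (interval 46.03 to 51.4) and 47.01 TPM in replicate 2 (43.97 to 49.35), from 2848 and 2737 counts. Mars2 (chromosome 1, 55237177 to 55248470) had 2.17 TPM from 929 counts in replicate 1 (interval 2.01 to 2.29) and 1.82 TPM from 768 counts in replicate 2 (1.665 to 1.92), the lowest level of any member. Its only transcript in the table is 11294 bases long, of which 1758 are coding, so its counts were spread over a long model, and the cytosolic gene had 3.07 and 3.56 times its counts. The log2 ratio was 3.98 in replicate 1 and 4.09 in replicate 2 (mean 4.04 ± 0.078, SD, n = 2). The mean was 2.71 when complete coding transcripts alone were counted and 1.72 on expected counts, and the widest pair was then tryptophan at 3.38 by the first measure and proline at 4.16 by the second. Eprs, the glutamyl-prolyl enzyme of the complex (chromosome 1, 185363044 to 185428360), had 56.1 and 53.8 TPM in replicates 1 and 2 (intervals 52.1 to 59.8 and 49.8 to 57.1, counts 7095 and 6757). Pars2, the mitochondrial prolyl enzyme (chromosome 4, 106651069 to 106655282), had 5.43 TPM in replicate 1 (interval 4.70 to 6.44) and 5.01 TPM in replicate 2 (4.46 to 5.81), from 394 and 379 counts. For this pair the ratio was 3.15 in replicate 1 and 3.19 in replicate 2 (mean 3.17 ± 0.027, SD, n = 2).

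Wars, the tryptophanyl enzyme known in human cells as induced by interferon-gamma (chromosome 12, 108860030 to 108894174), had 32.6 TPM from 3102 counts in replicate 1 (interval 31.04 to 33.8) and 29.7 TPM from 2781 counts in replicate 2 (28.4 to 30.9). Wars2 (chromosome 3, 99141068 to 99239186) had 3.99 TPM in replicate 1 (interval 3.48 to 4.77) and 3.64 TPM in replicate 2 (3.255 to 4.26), from 528 and 513 counts. Their log2 ratio came to 2.75 in replicate 1 and 2.73 in replicate 2 (mean 2.74 ± 0.017, SD, n = 2). Sars, the seryl enzyme (chromosome 3, 108424865 to 108445209), had 58.4 and 55.5 TPM in replicates 1 and 2 (intervals 55.25 to 60.4 and 52.25 to 57.5, counts 3871 and 3664). Sars2 (chromosome 7, 28741992 to 28753871) had 12.3 TPM from 849 counts in replicate 1 (interval 11.3 to 12.95) and 11.2 TPM from 768 counts in replicate 2 (10.3 to 11.9), and the ratio was 2.16 in replicate 1 and 2.21 in replicate 2 (mean 2.18 ± 0.034, SD, n = 2). Serine and tryptophan thus had cytosolic genes above their partners by 4.84-fold and 8.16-fold of the mean TPM.

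Asparagine, glutamate, histidine and valine followed, with cytosolic genes between 2.17-fold and 3.18-fold above their partners by mean TPM. Nars (chromosome 18, 64499647 to 64516652) had 41.5 TPM in replicate 1 (interval 39.6 to 42.1) and 40.9 TPM in replicate 2 (39.02 to 41.5), from 4010 and 3909 counts, and Nars2 (chromosome 7, 96951505 to 97064758) had 13.3 TPM in replicate 1 (interval 12.01 to 15.2) and 12.6 TPM in replicate 2 (11.15 to 14.55), from 1191 and 1125 counts. Between them the log2 ratio was 1.57 in replicate 1 and 1.63 in replicate 2 (mean 1.60 ± 0.039, SD, n = 2). Ears2, the mitochondrial glutamyl enzyme, which also loads glutamate on the mitochondrial glutamine tRNA (chromosome 7, 122037213 to 122067263), had 21.1 TPM from 2120 counts in replicate 1 (interval 19.8 to 21.8) and 22.1 TPM from 2185 counts in replicate 2 (20.7 to 22.8). Against Eprs this gave a ratio of 1.37 in replicate 1 and 1.25 in replicate 2 (mean 1.31 ± 0.085, SD, n = 2).

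Hars and Hars2 are divergent neighbours on chromosome 18, with starts 197 bases apart on opposite strands. Hars (36766528 to 36783205) had 34.7 TPM in replicate 1 (interval 32.8 to 35.5) and 33.8 TPM in replicate 2 (31.96 to 34.6), from 2498 and 2406 counts. Hars2 (36783008 to 36792562), a gene of human Perrault syndrome, had 14.9 TPM from 1332 counts in replicate 1 (interval 13.7 to 16.8) and 16.3 TPM from 1506 counts in replicate 2 (15.2 to 18.3). The ratio was 1.17 in replicate 1 and 1.00 in replicate 2 (mean 1.09 ± 0.116, SD, n = 2), and the mean TPM differed 2.19-fold. The annotated genes overlap, and with the strand setting of the counting not given in the sources used here, their shared bases cannot be assigned to either gene with certainty. Vars, the valyl enzyme that binds elongation factor 1 (chromosome 17, 35000987 to 35016322), had 16.4 and 15.4 TPM in replicates 1 and 2 (intervals 15.98 to 19.9 and 15.04 to 19.05, counts 1971 and 1799). Vars2 (chromosome 17, 35655634 to 35667592) had 7.12 and 7.48 TPM in replicates 1 and 2 (intervals 7.58 to 10.7 and 7.48 to 10.15, counts 976 and 967), and their ratio was 1.10 in replicate 1 and 0.95 in replicate 2 (mean 1.02 ± 0.107, SD, n = 2).

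The alanyl and threonyl pairs were called by narrower margins. Aars (chromosome 8, 111033144 to 111057664) had 19.5 TPM in replicate 1 (interval 19.05 to 21.4) and 17.2 TPM in replicate 2 (16.8 to 18.9), from 4089 and 3587 counts. Aars2, the enzyme of the infantile cardiomyopathy named above (chromosome 17, 45506841 to 45520843), had 11.1 TPM in replicate 1 (interval 10.35 to 11.5) and 10.5 TPM in replicate 2 (9.83 to 10.96), from 1372 and 1293 counts. That is a ratio of 0.77 in replicate 1 and 0.66 in replicate 2 (mean 0.71 ± 0.077, SD, n = 2). Tars, the threonyl enzyme (chromosome 15, 11382301 to 11399665), had 24.7 TPM from 2390 counts in replicate 1 (interval 23.4 to 25.3) and 21.8 TPM from 2086 counts in replicate 2 (20.6 to 22.4), and Tars2 (chromosome 3, 95739976 to 95760206) had 18.1 TPM from 1641 counts in replicate 1 (interval 17.03 to 18.8) and 19.3 TPM from 1727 counts in replicate 2 (18.1 to 19.96). The ratio of 0.42 in replicate 1 and 0.17 in replicate 2 (mean 0.30 ± 0.181, SD, n = 2) was the smallest of the 10, and its pups differed by nearly as much as the pair did.

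Tyrosine and cysteine gave no call. Yars (chromosome 4, 129189760 to 129219607) had 23.96 and 23.4 TPM in replicates 1 and 2 (intervals 22.8 to 26.25 and 22.4 to 25.5, counts 2261 and 2263), and Yars2 (chromosome 16, 16302965 to 16309640), a gene of a human myopathy with anaemia, had 23.8 and 23.2 TPM in replicates 1 and 2 (intervals 22.7 to 25.6 and 22.0 to 25.2, counts 1355 and 1283). Their intervals overlapped in both pups, and the log2 ratio was 0.008 in replicate 1 and 0.011 in replicate 2 (mean 0.009 ± 0.002, SD, n = 2). Expected counts put Yars at 1.67 and 1.76 times Yars2, with an effective length of 2473 bases for Yars and 1490 bases for Yars2 in replicate 1. Cars, the lowest cytosolic gene (chromosome 7, 143557230 to 143600090), had 10.1 TPM in replicate 1 (interval 9.875 to 12.6) and 10.1 TPM in replicate 2 (9.89 to 11.97), from 868 and 900 counts. Cars2 (chromosome 8, 11513977 to 11550783) had 13.5 TPM in replicate 1 (interval 12.5 to 14.2) and 13.2 TPM in replicate 2 (12.2 to 13.9), from 902 and 873 counts. The ratio was -0.39 in replicate 1 and -0.36 in replicate 2 (mean -0.38 ± 0.015, SD, n = 2), the same sign in both pups, but the intervals overlapped in replicate 1 and not in replicate 2.

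The mitochondrial enzyme was higher for phenylalanine, isoleucine, arginine and leucine. Farsa, the alpha subunit of the cytosolic phenylalanyl enzyme, a tetramer of alpha and beta chains (chromosome 8, 84856989 to 84869257), had 29.1 TPM in replicate 1 (interval 27.5 to 30.2) and 27.5 TPM in replicate 2 (25.96 to 28.6), from 1943 and 1827 counts. Farsb, the beta subunit (chromosome 1, 78417975 to 78488897), had 57.02 TPM in replicate 1 (interval 54.5 to 58.9) and 57.7 TPM in replicate 2 (55.2 to 59.3), from 3731 and 3792 counts, which was 2.03 ± 0.0995 (SD, n = 2) times Farsa. The mitochondrial enzyme is a single chain, Fars2 (chromosome 13, 36117412 to 36726280), with 40.6 TPM from 3122 counts in replicate 1 (interval 38.6 to 41.5) and 39.5 TPM from 3006 counts in replicate 2 (37.5 to 40.3). It stood between the cytosolic subunits: the log2 ratio was -0.47 in replicate 1 and -0.51 in replicate 2 (mean -0.48 ± 0.029, SD, n = 2) with Farsa, and its mean was 0.51 with Farsb in its place.

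Iars, the isoleucyl enzyme of the complex (chromosome 13, 49682100 to 49734267), had 19.1 and 16.65 TPM in replicates 1 and 2 (intervals 17.45 to 21.9 and 16.3 to 19.3, counts 2806 and 2603). Iars2 (chromosome 1, 185284726 to 185329396) had 29.25 and 27.1 TPM in replicates 1 and 2 (intervals 27.9 to 29.9 and 25.8 to 27.8, counts 5164 and 4652), a log2 ratio of -0.59 in replicate 1 and -0.67 in replicate 2 (mean -0.63 ± 0.058, SD, n = 2). Its start lies 33648 bases from that of Eprs on the opposite strand. Rars, the arginyl enzyme (chromosome 11, 35808381 to 35834506), had 28.9 TPM in replicate 1 (interval 27.4 to 30.1) and 29.2 TPM in replicate 2 (27.8 to 30.5), from 2149 and 2152 counts. Rars2, a gene of human pontocerebellar hypoplasia (chromosome 4, 34614957 to 34660167), had 37.7 TPM in replicate 1 (interval 35.1 to 40.5) and 38.6 TPM in replicate 2 (36.1 to 41.35), from 1986 and 2075 counts. The log2 ratio was -0.37 in replicate 1 and -0.39 in replicate 2 (mean -0.38 ± 0.011, SD, n = 2). Expected counts put Rars at 1.08 and 1.04 times Rars2, the opposite order, since the effective length was 1950 bases for Rars and 1381 bases for Rars2 in replicate 1. Part of the Rars2 level lay in Rars2-205, a model of 326 bases with an incomplete coding sequence. It took 19.7% and 17.4% of the gene's TPM in replicates 1 and 2 from 64 and 58 counts.

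Lars2 stood apart from every other member. Lars, the cytosolic leucyl enzyme, which senses leucine for the growth kinase mTORC1 in human cells (chromosome 18, 42202298 to 42262194), had 19.3 TPM in replicate 1 (interval 18.3 to 19.7) and 18.01 TPM in replicate 2 (17.1 to 18.4), from 2763 and 2555 counts. Lars2 (ENSMUSG00000035202.7, chromosome 9, 123366927 to 123462666) had 724.5 TPM in replicate 1 (interval 709.5 to 718) and 695 TPM in replicate 2 (680.0 to 688.5), from 104567 and 99202 counts. Their log2 ratio was -5.16 in replicate 1 and -5.19 in replicate 2 (mean -5.18 ± 0.023, SD, n = 2), a 38.1-fold difference of mean TPM. Lars2 exceeded Fars2, the next mitochondrial gene, by 17.7 ± 0.169 times and Kars, the highest cytosolic gene, by 8.87 ± 0.0625 times. It ranked 177 among protein-coding genes and held 73.7% ± 0.420 of the mitochondrial sum in TPM and 81.3% ± 0.227 in counts.

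The last part of the mouse Lars2 transcript is known to resemble 28S ribosomal RNA. In the GENCODE M21 transcript Lars2-201 (3894 bases) the stop codon ends at base 2908, which leaves 986 bases of 3′ UTR. Within it, bases 3278 to 3349 aligned to the antisense RNA gene Gm15564 with 98.6% identity over 72 bases, and bases 3163 to 3349 to AA474408 with 80.1% identity over 196 aligned columns. Those genes had few reads of their own, 2 and 0 counts for Gm15564 and 125 and 136 counts for AA474408 in replicates 1 and 2. Gm42418 and Gm26917, lincRNA annotations on chromosome 17 known to overlap a ribosomal RNA repeat, had 2804 and 2810 TPM and 569.0 and 576.1 TPM. Neither was among the genes that aligned to Lars2-201, and the alignment covered GENCODE M21 transcripts only. Log2 ratios between the pups were -0.019 for Gm42418, -0.034 for Gm26917 and 0.045 for Lars2. The deposited counts give no position within a gene, and the part of this stretch in the level of Lars2 was not tested.

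In 35 of 36 members the most abundant transcript had a complete coding sequence in both pups, against 89.2% of 11699 protein-coding genes detected in both pups. Of the members at 5 TPM or more, 25 had more than 1 transcript in the tables, and in all 25 the most abundant one was the same in both pups, against 94.6% of 6445 genes at that level. Transcripts with a complete coding sequence held 85.9% ± 0.424 of the cytosolic sum and 96.9% ± 0.0776 of the mitochondrial sum (88.1% ± 0.486 without Lars2). Over single genes the median share was 92.6% and 96.0% for cytosolic members and 90.3% and 95.1% for mitochondrial members in replicates 1 and 2, against 97.3% and 97.5% over detected protein-coding genes.

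Mars1 was the exception. Its transcript Mars-203, 621 bases with an incomplete coding sequence, took 56.9% and 55.2% of the gene's TPM in replicates 1 and 2 from 555 and 512 counts, and the full-length Mars-201, 2939 bases, took 37.7% and 39.5% from 2002 and 1993 counts. A short model turns few reads into many TPM, so the gene's level of 49.0 and 47.0 TPM was mostly that of the short transcript. Qars was the other member under 50% in complete coding transcripts, at 43.3% and 40.9%, with 27.3% and 28.4% in Qars-216, a transcript annotated for nonsense-mediated decay. Another 11.5% and 14.5% lay in a Qars transcript that GENCODE M21 does not list and whose class is unknown, and with it counted as coding the gene would stand at 54.8% and 55.4%. Under 50% in both pups were also 10.6% of detected protein-coding genes. Eprs had 60.9% and 62.5% in its complete coding transcript, and another 19.04% and 18.8% in the decay transcript Eprs-202.

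**Figure D3:**
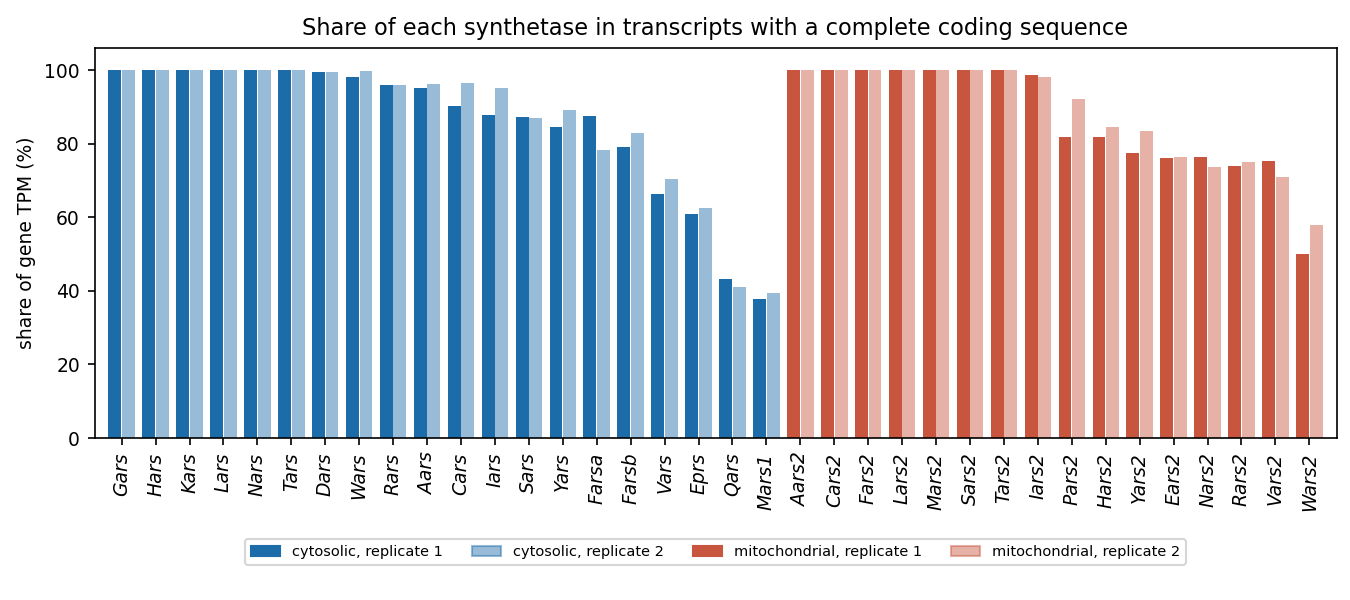
Share of each gene's TPM in transcripts with a complete coding sequence, in percent, for replicate 1 (full colour) and replicate 2 (pale), cytosolic genes left of mitochondrial genes. Most bars reach or approach 100%, and Mars1, Qars and Wars2 stand lowest, Mars1 at 37.7% and 39.5%.

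Counting complete coding transcripts alone left the sign of all 16 pairs as it was. The log2 ratio of Mars1 over Mars2 was then 2.71 in place of 4.04. With the whole-gene TPM intervals kept as a criterion, 10 pairs were still called with the cytosolic enzyme higher. The ratio of Rars over Rars2 was -0.027 in place of -0.38, from 27.69 and 28.01 TPM for Rars and 27.86 and 28.93 TPM for Rars2. That mean was smaller than the difference between the pups, so the call of Rars2 as higher did not hold on this measure. Kars showed both of its known forms: Kars-201, with 1785 coding bases, took 76.9% of TPM in both pups, and the longer coding form of 1872 bases, carried by Kars-202 (18.1% and 19.5%) and Kars-203 (4.93% and 3.64%), took 23.06% and 23.1%. In human it is the longer coding form that goes to mitochondria. Gars had a single transcript, so its 2 uses cannot be separated here.

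Between the littermates the synthetases differed little. At a mean count of 50 or more, 0 of 36 members passed 1.2-fold in either direction, against 7.27% of 13463 genes higher and 7.94% lower in replicate 1. That background reaches down to a mean count of 50, whereas every member had 379 counts or more in each pup. Genes of like count were not set beside the members, so the shares do not show that synthetases were steadier. Log2 ratios of TMM-scaled counts, replicate 1 over replicate 2, ran from -0.083 to 0.165 for cytosolic genes and from -0.208 to 0.243 for mitochondrial genes, and 82.4% of all genes lay within the widest of these. Signs were positive for 15 of 20 cytosolic and 11 of 16 mitochondrial genes, with medians of 0.041 and 0.024, against -0.001 over the 15161 genes that reached a mean count of 20. A median that near to zero means that the signs of all genes split almost evenly. Scaling by spike-in counts moved the median of all genes by -0.06 and the medians of the members with it, to -0.019 and -0.035, which left them where they stood relative to all genes. Both medians of the members thereby changed sign, so the tally of positive signs depends on the scaling. In a whole heart, fewer cells of a type and less RNA per cell cannot be told apart.

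The members at the ends of this range lay inside the 5th and 95th percentiles of the ratios of those 13463 genes, -0.337 and 0.309. The most positive log2 ratios were those of Mars2 at 0.24 (929 counts in replicate 1 and 768 in replicate 2), Tars at 0.17 (2390 and 2086) and Aars at 0.16 (4089 and 3587). The most negative were those of Hars2 at -0.21 (1332 and 1506), Tars2 at -0.11 (1641 and 1727) and Rars2 at -0.094 (1986 and 2075).

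**Figure D4:**
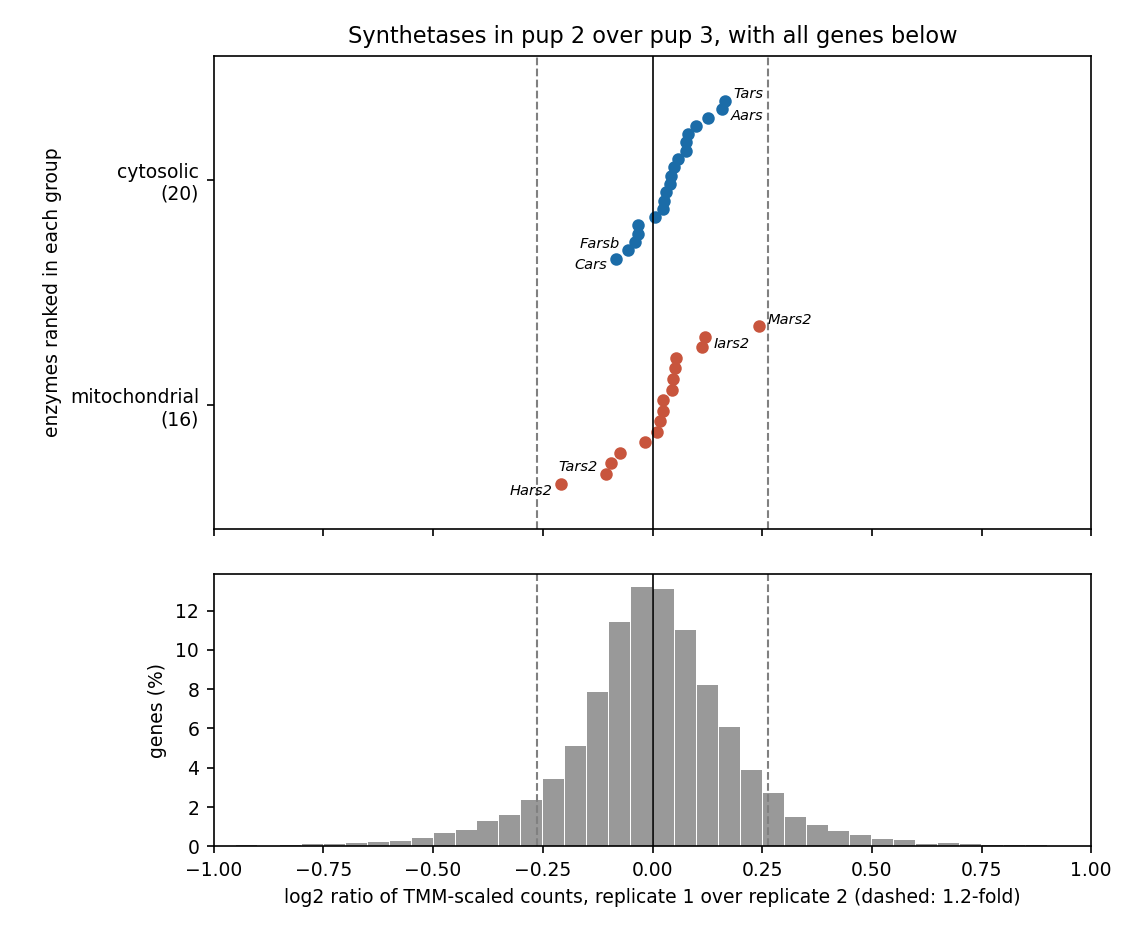
Upper panel: log2 ratio of TMM-scaled counts, replicate 1 over replicate 2, for each cytosolic and mitochondrial synthetase, ranked within its group, with dashed lines at 1.2-fold. Lower panel: the share of the 13463 genes that reached a mean count of 50 in each bin of that ratio; all 36 members lie between the dashed lines.

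Genes that work beside the synthetases were given from lists by role. The scaffold of the complex had Aimp2 at 51.2 and 49.1 TPM, Aimp1 at 40.4 and 41.6 TPM and Eef1e1 at 26.8 and 27.4 TPM, which lies within the range of the enzymes they hold. Mitochondria make their glutaminyl-tRNA by amidation, and its amidotransferase had Gatb at 30.1 and 33.7 TPM, Qrsl1 at 26.3 and 25.6 TPM and Gatc at 11.3 and 11.4 TPM. Mtfmt, which formylates the initiator methionyl-tRNA made by Mars2, had 6.91 and 6.88 TPM. All 7 of these genes were detected, with log2 ratios between the pups from -0.081 to 0.061.

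Elongation factors, which take the charged tRNAs to the ribosome, were abundant. Cytosolic elongation factors summed to 2481 and 2530 TPM over 6 genes in replicates 1 and 2, led by Eef1a1, the factor that binds aminoacyl-tRNA, at 1663 and 1714 TPM, then Eef2 at 278.6 and 264.0 TPM, Eef1d at 217.1 and 223.1 TPM, Eef1b2 at 172.5 and 177.8 TPM, Eef1g at 134.8 and 134.6 TPM and Eef1a2 at 15.1 and 16.4 TPM. Mitochondrial translation factors summed to 433.1 and 428.6 TPM over 9 genes. Tufm, the mitochondrial counterpart of Eef1a1, led them at 152.3 and 148.0 TPM. Gfm1, a translocase, had 99.7 and 88.6 TPM, and Tsfm, which recharges Tufm, 71.9 and 73.2 TPM. The initiation factors Mtif2 and Mtif3 had 37.6 and 36.5 TPM and 15.9 and 19.9 TPM. Of the factors that end translation or recycle ribosomes, Mrrf had 21.4 and 26.7 TPM, Gfm2 18.2 and 18.8 TPM, Mtrf1 8.77 and 8.40 TPM and Mtrf1l 7.20 and 8.58 TPM.

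Ribosomal protein genes also had a higher median for the cytosol than for mitochondria. All 76 cytosolic ribosomal protein genes were detected and had a median of 357.4 and 374.5 TPM, and all 77 mitochondrial ones a median of 102.4 TPM in both pups. The highest were Rpl41 (1606 and 1658 TPM), Rps29 (1201 and 1238 TPM) and Rpl36 (1146 and 1212 TPM) for the cytosol, and Mrpl42 (661.3 and 729.4 TPM), Mrps21 (400.1 and 429.5 TPM) and Mrpl30 (362.6 and 377.6 TPM) for mitochondria. Cytosolic ribosomal protein genes share sequence with many processed pseudogenes, and their levels are uncertain to that extent. The substrates themselves were out of reach: all 22 mitochondrial tRNA genes were listed at 0, with an effective length of 0 in the tables.

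Genes that finish tRNA ends were led by Hsd17b10, a subunit of mitochondrial RNase P, at 196.3 and 199.5 TPM, followed by Trnt1, which adds the CCA end, at 29.7 and 26.0 TPM and Trmt10c, another subunit, at 15.95 and 15.05 TPM. Elac2 had 11.5 and 10.6 TPM, the third RNase P subunit, listed as 1110008L16Rik, 5.57 and 4.93 TPM, and Elac1 1.79 and 1.65 TPM. Editing and deacylation of wrongly charged tRNA had 4 genes at like levels: Aarsd1 (24.7 and 24.9 TPM), Prorsd1 (23.4 and 23.8 TPM), Dtd1 (22.3 and 19.6 TPM) and Dtd2 (18.8 and 17.8 TPM).

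The kinases that sense uncharged tRNA or other stress lay between 2.22 and 13.99 TPM. Eif2ak4, the sensor GCN2, had 2.27 and 2.22 TPM and its activator Gcn1l1 11.0 and 10.9 TPM, while Eif2s1, the factor subunit they modify, had 40.1 and 40.06 TPM. The other kinases were Eif2ak1 (13.99 and 13.8 TPM), Eif2ak2 (8.74 and 5.56 TPM) and Eif2ak3 (2.62 and 2.70 TPM). Atf4, which acts downstream of them, had 48.6 and 47.9 TPM. Of the 23 listed genes of the ATF4 and amino acid response, 19 were detected, with a median log2 ratio between the pups of 0.026 and a range from -0.591 to 1.332. The most abundant were Slc38a2, a transporter of neutral amino acids, at 107.4 and 96.0 TPM, Atf4, and Shmt2, which makes glycine in mitochondria, at 36.1 and 33.4 TPM.

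Levels of the cytosolic enzymes were only weakly related to how often their amino acids were used. Codons of protein-coding transcripts, those with an incomplete coding sequence included, were weighted by TPM over 16911 nuclear-encoded genes. Transcripts with more than 1 stop codon in the stretch read were left out, so single inner stops were not removed. Incomplete sequences were read from their first annotated coding base, without a check of the frame. This gave leucine 9.23% and tryptophan 1.06% of codons in replicate 1. Lars, for the most used amino acid, had 19.3 TPM there, and Wars, for the least used, 32.6 TPM. Across 20 amino acids, with Farsa alone for phenylalanine, Pearson's r on log2 values was 0.247 in replicate 1 and 0.229 in replicate 2. Spearman's rho was 0.201 and 0.192. This is a description across genes of the same libraries, which share depth and are not independent replicates, and the enzyme for proline and that for glutamate are 1 gene.

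For the mitochondrial enzymes the same measure was taken over the 13 proteins encoded in the organelle, where leucine made up 15.2% and cysteine 0.455% of weighted codons in replicate 1. Pearson's r over 16 enzymes was 0.280 and 0.261 in replicates 1 and 2, and -0.075 and -0.093 over 15 enzymes without Lars2. Iars2, for the second most used amino acid (9.79%), had 29.3 TPM in replicate 1, and Mars2, for methionine at 6.11%, had 2.17 TPM.

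**Figure D5:**
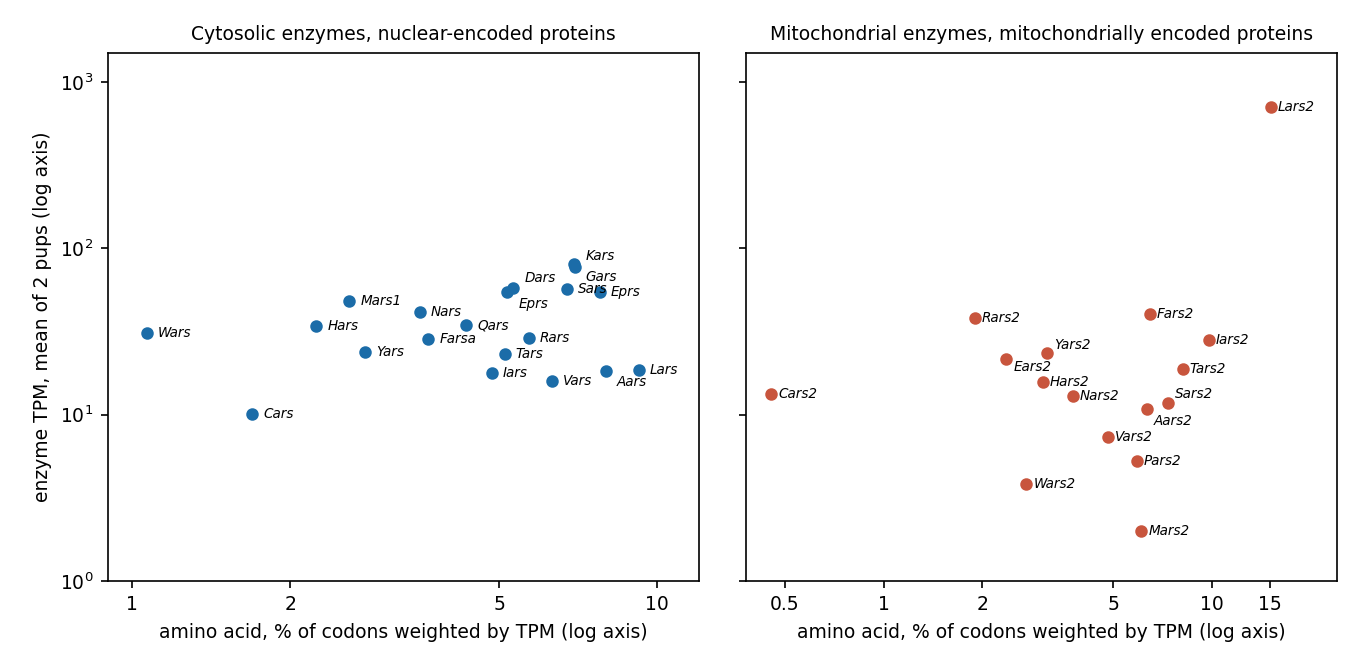
Mean TPM of each enzyme against the share of its amino acid among codons weighted by TPM, both on log axes, for cytosolic enzymes with nuclear-encoded proteins (left) and mitochondrial enzymes with the 13 proteins of the organelle (right). Eprs appears for glutamate and for proline, and Farsa alone stands for cytosolic phenylalanine, without Farsb. The cytosolic points form a flat cloud, and Lars2 at the upper right is the only mitochondrial enzyme far above the others.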

How the data were processed

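Total RNA of 2 neonatal hearts was measured. Per the labels, 10 ng entered each library, fragments above 200 bases were kept, and spike-ins were added. The deposited read-me names mm10 and GENCODE M4; the column names are those of RSEM, and an aligner and tool version were not given in the sources used here. Per the file headers, expected counts are reads estimated per feature, TPM divides them by effective length and scales them to a fixed total, and FPKM scales by length and total reads. The authors also deposited posterior means of TPM, bounds of credibility intervals (a signal in TPM units) and each transcript's percent of its gene.

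Names, coordinates and coding sequences came from GENCODE M21 on GRCm38, and 42462 of 43346 Ensembl genes matched by identifier. Members and lists were chosen with earlier results of these data known. Every member is named; between the pups the 3 highest and 3 lowest ratios are, and of each partner list the 3 most abundant genes, with all genes of lists of up to 10. Ratios between the pups used expected counts rounded to whole numbers, TMM scaling with edgeR 4.0.16 (R 4.3.3) and a prior count of 2; the biological coefficient of variation was 0.0892 over 15980 genes. The scaling was tested on simulated data. A member was counted as having shared reads if the deposited posterior SD of its count was above 10% of the posterior mean. By this cut 0 members did, and the largest value below it was 0.62%, for Qars. Sequences were aligned with BLAST+ 2.17.0, and tables handled in Python 3.11.15 with pandas 2.3.3, numpy 2.4.6, scipy 1.17.1 and Biopython 1.88. DESeq2 1.42.0 size factors, spike-ins, other units, pseudocounts and filters, and each pup left out were alternatives. Amino acid use was taken from codons, because no protein table was used here, and the planned protein motifs were not run. The sequence of 1 promoter with the core motif is not reported here.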

Additional observations from a re-analysis of the deposited data

How the results depend on the processing

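The ratio of summed TPM, cytosolic over mitochondrial, was 0.787, and 2.99 without Lars2, an alternative chosen after seeing the data, as was counting complete coding transcripts only, which gave 0.698. It was 0.794 with posterior means, 0.530 with expected counts not divided by length and 0.624 without Kars and Gars, and 0.784 to 0.789 with either pup left out. The ratio of medians was 2.26, and 2.09 with expected counts, 2.08 without Kars and Gars, 2.44 without Lars2, 1.95 with complete coding transcripts, and 2.14 to 2.37 with either pup left out. The complex over the other cytosolic genes was 1.39, and 1.43 with posterior means, 1.02 with expected counts, 1.22 without Kars and Gars, 0.862 with complete coding transcripts, and 1.36 to 1.41 with either pup left out; the cause was not tested. Rars over Rars2 was 0.083 on counts, and Farsb over Fars2 0.508, on the log2 scale; no other pair changed sign among 129 values under an alternative. Pairs with the cytosolic enzyme higher stayed at 10 or 11, the interval criterion always being taken from whole-gene TPM. On expected counts the 11 took in Rars and Rars2, although their TPM intervals lie apart in the opposite order. Past 1.2-fold between the pups, 1 member (Hars2) was counted with spike-in scaling, which rests on 262 and 246 counts and moved the median of all genes by -0.06, and 0 under the other scalings. The correlation with amino acid use was 0.238, and 0.221 without the 100 most abundant genes, 0.196 by Spearman, 0.212 with Farsb, and 0.229 to 0.247 with either pup left out. No member passed the 10% cut for shared reads, so there was none to leave out. The cut registers only reads shared between features of the gene table. It could not flag reads of unlisted sequences on Lars2. No paired analysis was possible because there was only 1 group. With 2 pups, no spread between hearts beyond this pair can be given.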
